A study of Mus musculus with 7 samples.

Results

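The chemokine and sphingosine-1-phosphate (S1P) receptor genes that position T follicular helper (Tfh) cells were examined in a list of accessible chromatin sites. The set comprised 10 genes of 21900 protein-coding mouse genes, chosen by name with earlier results of these data known. The follicle homing group held 4 of them, Cxcr5, Cxcr4, S1pr2 and Gpr183. The egress and inflammatory homing group held 6, which were Ccr7, S1pr1, S1pr4, Cxcr3, Cx3cr1 and Selplg. The data were 1 list of 6395 peaks in which the file names a gene for each genic peak. Peaks named for a member numbered 9, and they belonged to 6 members. The other 4 members, Cxcr5, S1pr2, Cxcr3 and Selplg, had no row.

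ATAC-seq, which marks open DNA by transposase insertion, was applied to splenic Tfh cells from lupus-prone mice of the B6.Sle1.Yaa strain at 5 months of age. All mice carried the Sle1 lupus susceptibility interval and the Yaa autoimmune accelerator of the Y chromosome. The anti-IFNAR1 group (4 samples, written anti-IFNA1 in the labels) received an antibody named in the series title as directed against a type I interferon receptor chain. The control group (3 samples) received anti-rat IgG, and both were dosed 2 times a week for 4 weeks. How many mice made up a sample is not stated in the labels. Cells were gated as CD4+, CD44+ and GITR-, expressing much CXCR5 and PD-1 and little PSGL-1. Since Cxcr5 and Selplg encode 2 of the gated proteins, the sort set limits to the surface level of both in either group.

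Tfh cells reach and stay in B cell follicles by reading several guidance cues. CXCR5, the receptor for CXCL13, draws them into the follicle, CXCR4 follows CXCL12 in the germinal centre, and S1PR2 holds cells inside it. GPR183 follows oxysterols towards the outer follicle and the border with the T cell zone. CCR7 retains cells in the T cell zone, S1PR1 drives exit from lymphoid organs into the circulation, and S1PR4 is a further S1P receptor of lymphocytes. CXCR3 and CX3CR1 guide effector cells to inflamed tissue, and PSGL-1, the product of Selplg, binds selectins.

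Every peak of the list had higher coverage in the anti-IFNAR1 data than in the control IgG background, at a q of 0.05 or below. The fold, pileup and q are the authors' own values for each peak. Distances to the TSS are also the authors', and they run from the nearest edge of the peak, not from its summit. The pileup is the number of anti-IFNAR1 fragments over the summit, scaled down to the control depth by a factor of 3.54. Such scaling corrects for depth only. Whether the anti-IFNAR1 and control IgG data also differed in how strongly open sites stood out from the rest was not tested. No value below carries a spread between samples, since no column held a single sample. Sites with lower coverage after anti-IFNAR1 were not analysed here. A member without a row may therefore be equally covered in both groups, lower after anti-IFNAR1 or too thinly covered, and these cannot be told apart. A listed site near such a member may also have been called intergenic or named for another gene.

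Sequences upstream of gene starts are shown first, because few of the peaks named for these receptors reached them. The 250 bases upstream of the RefSeq start (GRCm38.p6, minus strand, 5′ to 3′) are printed for a member with and a member without a row in each group. These are Cxcr4 (chr1:128592300-128592549) and S1pr2 (chr9:20976794-20977043) of the follicle homing genes, and S1pr4 (chr10:81500138-81500387) and Cxcr3 (chrX:101734148-101734397) of the others. Capitals mark matches, on either strand, to the letters described below.
Cxcr4: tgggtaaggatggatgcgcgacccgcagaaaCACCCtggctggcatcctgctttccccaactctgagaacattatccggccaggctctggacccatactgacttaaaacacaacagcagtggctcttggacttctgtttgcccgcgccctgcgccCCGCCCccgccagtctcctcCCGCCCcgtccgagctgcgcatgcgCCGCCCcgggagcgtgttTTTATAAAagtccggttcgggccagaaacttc
S1pr2: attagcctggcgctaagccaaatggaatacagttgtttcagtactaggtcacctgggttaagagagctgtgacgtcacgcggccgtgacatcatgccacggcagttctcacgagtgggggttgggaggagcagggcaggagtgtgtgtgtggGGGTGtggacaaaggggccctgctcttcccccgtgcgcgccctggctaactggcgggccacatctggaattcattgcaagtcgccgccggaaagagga
S1pr4: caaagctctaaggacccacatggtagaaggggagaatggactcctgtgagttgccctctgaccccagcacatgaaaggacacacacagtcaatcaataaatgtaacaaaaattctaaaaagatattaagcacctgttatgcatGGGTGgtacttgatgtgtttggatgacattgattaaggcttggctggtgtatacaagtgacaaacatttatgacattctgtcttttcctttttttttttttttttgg
Cxcr3: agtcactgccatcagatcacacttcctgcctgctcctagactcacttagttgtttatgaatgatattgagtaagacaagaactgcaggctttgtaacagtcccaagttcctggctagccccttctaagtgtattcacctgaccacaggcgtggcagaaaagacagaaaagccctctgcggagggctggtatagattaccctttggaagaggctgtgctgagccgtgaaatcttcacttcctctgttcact

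RefSeq sequences were at hand for 6 of the 10 members, these 4 and Gpr183 and Cx3cr1. None of these 6 upstream windows (0) was touched by a listed peak. Ccr7 and S1pr1, the members with a listed peak on their start, are not among the 6, and the S1pr1 start peak reached upstream of that gene. At Cxcr4 the window was rich in G and C (61.2%), with 0.838 times the CG dinucleotides expected from its base composition, against medians of 55.2% and 0.536 over 17492 protein-coding promoters. Genes with a listed peak had higher medians, 61.2% and 0.758, than genes without one (53.2% and 0.417). The Cxcr4 window lay near the medians of listed genes, whereas the other 3 listed members had fewer CG dinucleotides. S1pr4 had 38.8% G and C and no CG dinucleotide (0), Gpr183 had 32.0% and a ratio of 0.333, and Cx3cr1 had 53.6% and 0.233. Of the members without a row, S1pr2 had 59.2% and 0.663, and Cxcr3 had 48.0% and 0.209.

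Short motifs were then searched on both strands. The core of the interferon response element (GAAANNGAA) was in none (0) of the 6 windows and in 6.93% of all promoters, and the STAT core (TTCNNNGAA) in 0 and 6.69%. The AP-1 site (TGANTCA) had 0 matches against 6.22% of promoters, and the NF-kB core (GGGNNTTCC) 0 against 5.31%. The KLF core (CACCC) stood in 4 of the 6 windows, those of Cxcr4, S1pr2, S1pr4 and Cx3cr1, and in 53.2% of promoters. At Cxcr4 alone of the 6 the GC box (GGGCGG), held by 42.7% of promoters, was present, with 3 matches. A TATA box (TATAAA), held by 12.4%, was also in the Cxcr4 window only, with 2 overlapping matches on opposite strands. These letters describe the windows and say nothing about bound factors.

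Of the 10 positioning genes, 6 (60%) had at least 1 listed peak named for them, against 21.1% of all protein-coding genes. By group, 2 of 4 follicle homing genes (50%) and 4 of 6 egress and inflammatory homing genes (66.7%) were listed. Follicle homing genes held 2 of the 9 peaks, and egress and inflammatory homing genes held 7. With so few genes, 1 more listed follicle homing gene would reverse this order, and the background also counts genes that T cells do not use. Since the members were chosen with earlier results of these data known, the shares are descriptive only.

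**Figure D1:**
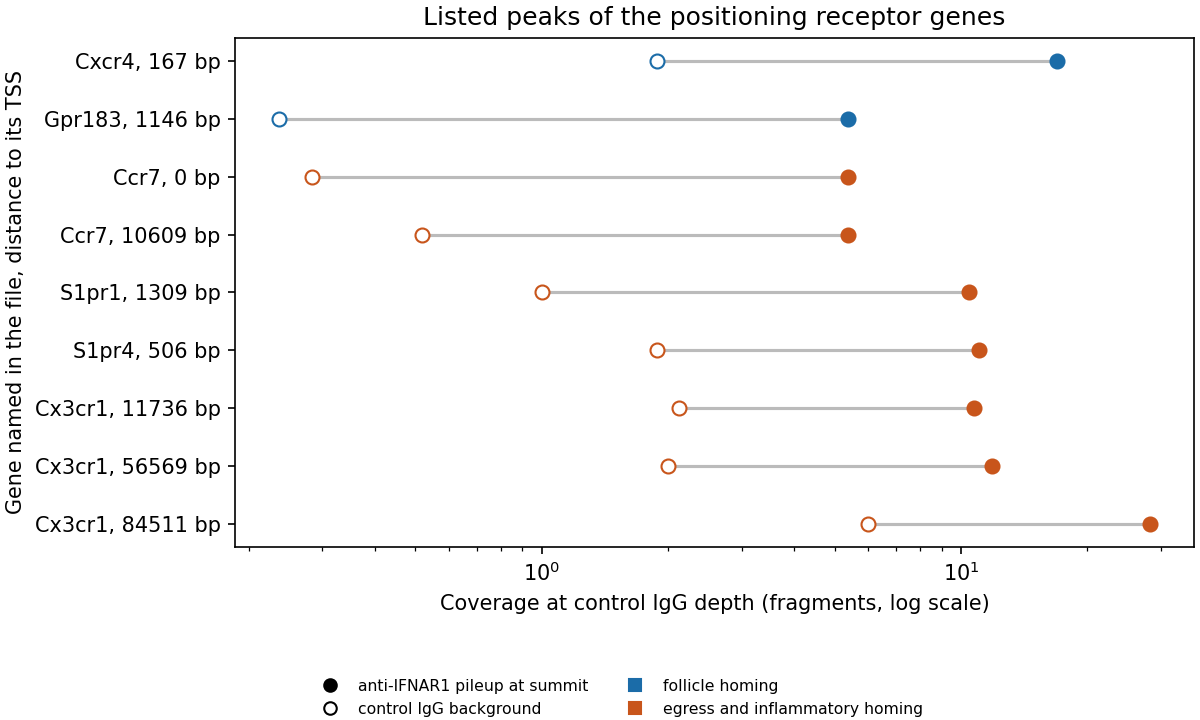
Coverage at the 9 listed peaks named for positioning receptor genes, each on its own line with its distance to the transcription start site (TSS) in the file. The horizontal log axis gives fragments at control IgG depth, filled points are the anti-IFNAR1 pileup at the summit, open points the control IgG background, and colours the 2 groups of genes. Pileups run from 5.37 to 28.3 and backgrounds from 0.236 to 6.

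Cxcr4, the CXCL12 receptor gene, had the largest fold of the 9 peaks. Its peak spanned chr1:128591392-128592124 in the first intron, 167 bp from the TSS and downstream of the window printed above. At its summit stood 60 anti-IFNAR1 fragments, a pileup of 17.0 against a background of 1.89. The resulting fold was 6.22 and the q 1.76e-07. That fold exceeded 80.6% of the list, and the peak had rank 1098 of 6395 by q. The background equals 8 control fragments in a 1 kb window, and at most 1 control fragment lay at the summit itself. Scaled for depth, the summit stood 8.98 times above that window (exact 95% interval 4.28 to 21.8). The same background could also come from 80 fragments in a 10 kb window. In this and the other intervals, the reading with fewer fragments was used, and the error covered is that of counting alone.

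2 intergenic peaks flanked Cxcr4, the only protein-coding gene that RefSeq places within 100 kb. One lay 22.3 kb beyond the gene start (chr1:128614581-128615636), with 70 fragments, 4 control fragments and a fold of 4.16. Its coverage was the higher of the pair and exceeded that of the intronic peak. Another lay 38.4 kb past the gene end (chr1:128548781-128549846), with 31 fragments against 1 and a fold of 4.88. The Cxcr4 region thus had 3 listed sites, of which the file named 1 for the gene.

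Gpr183, the oxysterol receptor gene, had 1 narrow peak of low coverage. It spanned chr14:121963776-121964048, 272 bp, and lay 1146 bp from the TSS in a 5′ UTR exon and also inside the span of the neighbouring gene Ubac2. There were 19 anti-IFNAR1 fragments (pileup 5.37) and a background of 0.236, with 0 control fragments at the site. The fold was 5.15 and the q 0.000372, at rank 3437. Only 8.99% of the list had a lower pileup, so the fold of this peak rests on few fragments. Its ratio to the background window was 22.8, with an exact interval from 3.62 to 946.

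Cxcr5, the gene of the defining follicle receptor, had no peak named for it, but a listed peak stood beside it. This peak (chr9:44510538-44510943) lay 844 bp outside the lower-coordinate end of the Cxcr5 gene (44511787 to 44526444). The file called it intergenic, and by RefSeq it fell within Bcl9l (44482738 to 44511906). Its summit had 30 anti-IFNAR1 fragments and a background of 0.944, and its fold of 4.88 came with rank 4173. A further intergenic peak, 55.1 kb beyond the other end of Cxcr5 (chr9:44581510-44582495), had the highest fold of all 32 peaks within 100 kb of a member, 8.30. There too 30 fragments stood at the summit, the background was 0.142 and the rank 494. Which gene either site serves was not tested. The strand of Cxcr5 was not in the tables used here, so both distances are from gene ends.

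S1pr2, which encodes the receptor that confines cells to germinal centres, had its nearest listed peak 26.0 kb away. This peak was at the TSS of Mrpl4, a mitochondrial ribosome gene, with 33 fragments against 1 and a fold of 5.16. TSS peaks of the adhesion genes Icam1 and Icam5 followed at 38.7 and 54.4 kb, with folds of 3.91 and 3.49.

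Ccr7, the gene of the T zone receptor, was the only member with a peak named for it at the TSS. That peak (chr11:99154651-99155079) had 19 fragments and a background of 0.283, so that the fold was 4.97 (q = 0.000884). A second peak (chr11:99144089-99144469) stood at the far end of the gene, 10609 bp from the TSS, also with 19 fragments, a background of 0.519 and a fold of 4.19 (q = 0.0147). No control fragment (0) lay at either site, and the backgrounds came from 12 and 22 control fragments in 10 kb windows. Against those windows the summits stood 19.0 times higher (exact 95% interval 8.74 to 42.8) and 10.3 times higher (5.30 to 20.03). Intergenic peaks lay on both sides of Ccr7, 15.7 kb beyond its start with 19 fragments and a fold of 5.36, and 11.7 kb past its end with 23 fragments and a fold of 4.65. All 4 sites around Ccr7 were thinly covered, at 19 to 23 fragments against a list median of 41.

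S1pr1, the egress receptor gene, had a broad peak over its coding exon and a separate one at its start. The peak named for it (chr3:115712418-115713764) was 1346 bp long, longer than 95.3% of the list, and lay in coding exon 2, 1309 bp from the TSS. It held 37 fragments against 1 control fragment, and its fold was 5.73 (q = 2.85e-05). The depth-scaled ratio at the site was 10.5, with a wide exact interval of 1.76 to 424. A further peak (chr3:115714938-115715424) covered the RefSeq start of S1pr1, with its summit 31 bp upstream, but the file named it for Gm9889, a neighbouring transcript. There were 25 fragments, the background was 0.425, and the fold of 5.66 ranked 2624 by q. With it, S1pr1 had 2 listed sites of nearly equal fold. An intergenic peak 43.5 kb beyond the start again showed 37 fragments against 1 and a fold of 5.73.

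S1pr4 had 1 peak in its coding exon (chr10:81499141-81499627), 506 bp from the TSS. With 39 fragments and a background of 1.89, it had a fold of 4.16 (q = 0.00112) and rank 4196. Cxcr4 had the same background with 60 fragments, and its fold was correspondingly larger. The ratio of the S1pr4 summit to its window was 5.84 (exact 95% interval 2.69 to 14.5), which overlapped that of Cxcr4. An intergenic peak 64.0 kb past the gene end (chr10:81432773-81433719) had 53 fragments, a background of 1.18 and a fold of 7.33, at rank 825. On the other side, peaks named for Gna11 and Aes lay at 45.1 and 59.6 kb, with folds of 6.05 and 4.86. Which genes these sites serve was not tested.

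Cx3cr1, the fractalkine receptor gene, had 3 peaks named for it, the most of any member, but RefSeq places only 1 of them in the gene. This one (chr9:120054687-120056547) lay 11736 bp from the TSS in an exon of the 5′ UTR, with 38 fragments and a background of 2.12. Its fold of 3.76 was the lowest of the 9 peaks, and its q was 0.0125. The peak of highest coverage (chr9:119981680-119983773) held 100 fragments against 6 control fragments at the site, a fold of 4.18 (q = 1.02e-07). It stood 84511 bp from the TSS, 64.9 kb outside the RefSeq gene, and inside Csrnp1 (119971163 to 119984742), a nuclear protein gene for which the file named 0 peaks. Its depth-scaled ratio was 4.71 (exact 95% interval 2.09 to 13.1). The third (chr9:120011318-120011715), 37.0 kb outside the RefSeq gene and in no protein-coding gene, had 42 fragments against 2 and a fold of 4.29. Both distant peaks were placed by the file in a 3′ UTR exon of the same long Cx3cr1 transcript. The ratio at the third peak was 5.94 (1.54 to 50.6).

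Cxcr3 and Selplg stood farthest from any listed peak. The single listed peak within 100 kb of Cxcr3 was the TSS peak of Ogt, a glycosyltransferase gene, 90.6 kb away with a fold of 4.44. For Selplg the nearest was the Iscu TSS peak at 44.0 kb, with a fold of 5.89. Iscu is an iron-sulphur cluster gene. Next came peaks of Coro1c, an actin-binding protein gene, at 75.4 and 76.4 kb, with folds of 5.13 and 4.11.

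**Figure D2:**
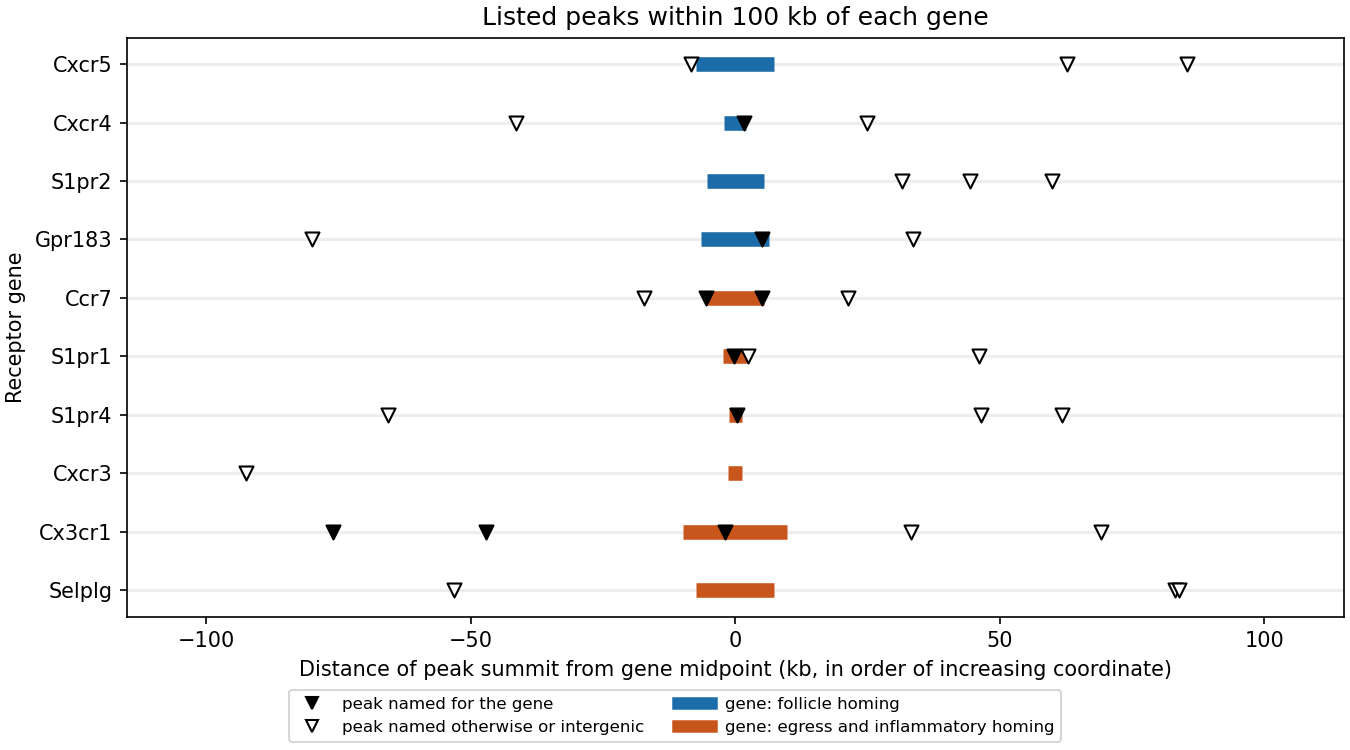
Listed peaks within 100 kb of each positioning receptor gene, as distance of the summit from the gene midpoint in kb, with coordinates increasing to the right. Bars are RefSeq gene spans coloured by group, filled triangles are peaks the file names for that gene and open triangles all others. Of 32 peaks, 8 touch a member gene. The single peak of Cxcr3 is drawn at -92.5 kb, with a gap of 90.6 kb between its edge and the gene.

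Few of these peaks lay at gene starts. The file placed 1 of the 9 member peaks at a TSS (11.1%), against 72.4% of all listed peaks, intergenic ones included. Within 1 kb of the named TSS lay 3 of 9, against 87.2% of the 5693 listed peaks with a gene, and beyond 10 kb lay 4 of 9, against 8.55%. Follicle homing peaks stood 167 and 1146 bp from the TSS, and those of egress and inflammatory homing genes 0 to 84511 bp, with a median of 10609 bp. Cx3cr1 alone gave 3 of the 4 peaks beyond 10 kb, and without it the other 4 peaks had a median of 907.5 bp and reached 10609 bp. By gene, 4 of the 6 listed members, Cxcr4, S1pr4, Ccr7 and S1pr1, had a listed peak within 1 kb of their start. That S1pr1 peak was named otherwise in the file, and this count was chosen after the data were seen. Counted by contact with the RefSeq gene, 7 of the 9 touched their gene, and so did the S1pr1 start peak. In 7 of these 8 the summit was downstream of the gene start, and in the eighth, at S1pr1, upstream.

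Fold and coverage were near those of the list. The median fold of the 9 member peaks was 4.29 (range 3.76 to 6.22), against 4.74 over all listed peaks, and 4 of the 9 exceeded that value. Follicle homing peaks had folds of 5.15 and 6.22, and egress and inflammatory homing peaks had a median of 4.19 and reached 5.73. Without the Cx3cr1 peaks, the egress and inflammatory homing median was 4.58. The 2 groups overlapped, since S1pr1 exceeded Gpr183. The median pileup was 10.7, against 11.6 for the list and 8.48 for its 1763 peaks outside a TSS, with 3 of 9 above the list median. In fragments, the medians were 38 for the members, 41 for the list and 30 outside a TSS. At 3 of the 9 sites (33.3%) the background was under 1 fragment, so that no control fragment lay there, against 31.6% of the list.

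**Figure D3:**
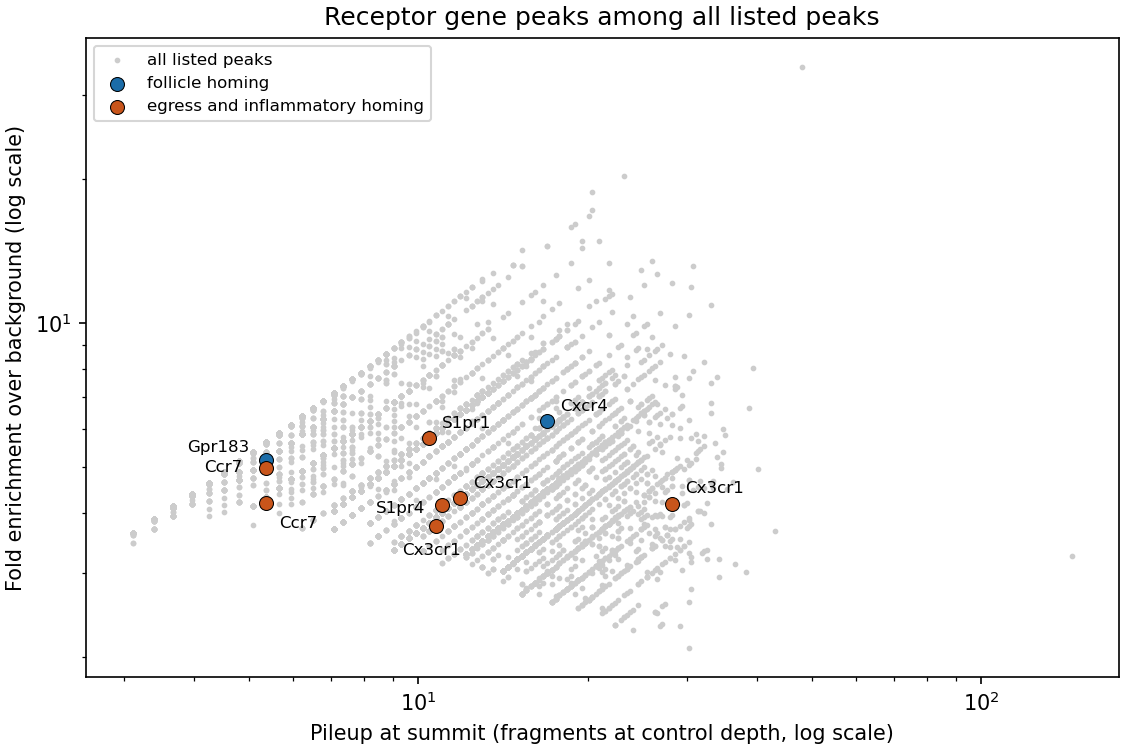
Fold enrichment over background against pileup at the summit, both on log axes, for all 6395 listed peaks (grey) and the 9 peaks of positioning receptor genes (coloured by group). Cxcr4 has the largest fold of the 9 at 6.22, and the Cx3cr1 peak inside Csrnp1 the largest pileup at 28.3.

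The count of listed members depended on what was asked of a peak. At a q of 0.01 all 6 were kept (18.1% of protein-coding genes), Cx3cr1 by the 2 peaks outside its RefSeq gene. With a fold of at least 5, Cxcr4, Gpr183 and S1pr1 were left (9.59% of genes), and with a pileup of at least 20 only Cx3cr1 (3.21%), by the peak inside Csrnp1. Counting any peak within 5 kb of the gene span gave 7 members (29.1% of genes), as Cxcr5 entered through its neighbouring site. Of the 6 members in the promoter table, 2 had a peak within 1 kb of the gene start, Cxcr4 and S1pr4 (21.4% of 17492 genes). Ccr7 and S1pr1, which are not in that table, also had one. All 6 in the table had one within 100 kb (58.4%).

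The other genes of the guidance pathways are given by role, beside the 21.1% of all protein-coding genes with a listed peak. These lists, like the members, were chosen with earlier results of these data known. Of 18 other chemokine receptor genes, 1 was listed (5.56%), Ccr8, whose TSS peak 23.4 kb from Cx3cr1 had a fold of 3.81. None (0) of the 7 chemokine genes that encode ligands of these receptors and none (0) of the 3 oxysterol enzyme genes had a peak. Of 10 further S1P receptor and metabolism genes, 2 (20%) were listed, near the share of all genes. They were Sgpl1, the S1P lyase gene, with a fold of 4.22, and Sphk1, a sphingosine kinase gene, with 4.71.

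Of 40 genes that regulate these receptors or signal below them, 24 (60%) were listed, against 21.1% of all genes, with a median fold of 4.35 over 33 peaks. The smallest q values belonged to Arrb1, which encodes a beta-arrestin, with a fold of 9.85 and 101 fragments against 2, and to Dock2, a Rac activator in migrating lymphocytes, with a fold of 8.74. Foxo1, a transcription factor gene of quiescent T cells, followed with 6.47 and Apbb1ip, a Rap1 effector gene, with 4.44. Gna13 and Arhgef1, whose products act below S1PR2, had folds of 3.34 and 4.88. Klf2, which drives S1pr1, and Cd69, which removes S1PR1 from the surface, had no peak. Gna12, of the same list, had no peak either, and Foxo1 was listed, as given above. These genes were picked out after their values were seen, so no pattern is read from them.

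Adhesion and selectin ligand genes were listed in 13 of 20 cases (65%, against 21.1% of all genes), with a median fold of 4.86. By smallest q, the integrin genes Itgb1 and Itgal led with folds of 6.97 and 6.68. Next by q came Fut7, a fucosyltransferase gene for selectin ligands on PSGL-1, with a fold of 4.86, and the integrin gene Itga4 with 3.54. Selplg, which encodes the protein that Fut7 modifies, was unlisted.

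**Figure D4:**
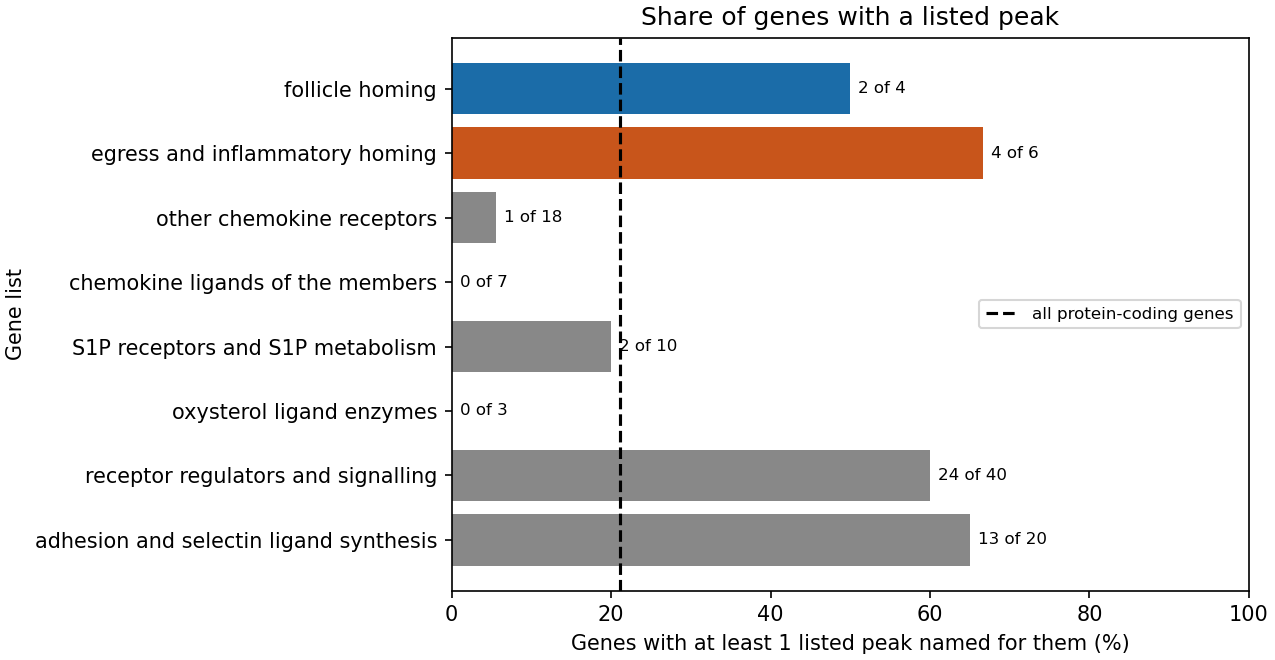
Percent of genes in each list with at least 1 listed peak named for them, with counts beside the bars and a dashed line at 21.1% for all 21900 protein-coding genes. The receptor groups (coloured), the signalling list and the adhesion list lie above the line, and the other 4 lists below it.

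Markers were checked in the same way. Of 11 Tfh markers 8 had a peak, and of 7 T cell markers 6, against 21.1% of all protein-coding genes. Cxcr5, Pdcd1 and Cd4 among these markers encode proteins used in the sort, and Cxcr5 is also a member. Neither the 6 B cell markers (0) nor the 6 markers of CD8 T and NK cells (0) had one, with 1 of 6 myeloid markers (Cd14, fold 4.13) and 1 of 4 regulatory T cell markers (Il2ra, 4.13). The Cd14 and Il2ra peaks each had 13 fragments, near the lowest count in the list, 11, and rank 5492 by q. Counting any peak within 5 kb of the gene span gave 11 of 11 Tfh and 6 of 7 T cell markers, against 29.1% of genes. It also gave 1 of 6 B cell, 1 of 6 CD8 T and NK, 1 of 6 myeloid and 2 of 4 regulatory T cell markers. The part of other cells in the receptor peaks was not tested.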

How the data were processed

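ATAC-seq was deposited for 4 anti-IFNAR1 and 3 control IgG samples as 1 annotated peak list. The tools named in the submitters' processing notes are bedtools, DESeq2, DiffBind 2.0.7, MACS2 2.1.0.20150420 and BWA 0.7.9a, with build mm10. Their roles, the shift of cut sites and any pooling of samples are not given there. The direction, anti-IFNAR1 over control IgG, was read from the deposited peak names. Per the file headers, the authors' signal is the pileup and their ratio the fold enrichment. The fold was taken to be (pileup + 1) / (background + 1), a form that the headers do not state. Damaged headers of 2 deposited columns were taken for the −log10 p and the −log10 q. A Poisson p recomputed from pileup and background differed from the first by at most 3.71e-05.

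Every pileup was close to a whole multiple of 0.283 (nominal tolerance 0.005, with somewhat wider limits applied). This gave fragments, and the background followed from the fold. The background was read as site, 1 kb, 10 kb or genome-wide coverage with a fragment length of 236 bp. The recovery of fragments, backgrounds and fragment length was tested on data simulated from the same form. The reading of a background as site, 1 kb, 10 kb or genome-wide coverage was not part of that test. Depth per sample is unknown. Ratio intervals are exact (Clopper-Pearson, conditional on the sum, 95%) only with the chosen background window taken as fixed. Listing peaks for high coverage tilts them upwards, and a background taken as the largest of these readings would tilt them downwards. The net direction was not tested. The design allowed for a test per sample, and no column carried a sample, so counts and medians are given with no test.

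Gene names were matched to RefSeq (GRCm38.p6, the same build as mm10): 5149 peaks matched a protein-coding gene, 3 matches lying elsewhere were dropped, and all 10 members matched. Gene starts and strands for 17492 genes came from the RefSeq promoter table, and the strands of Ccr7 and S1pr1 from the peak list. All members are named with every peak named for them and the nearest listed peak, and up to 4 genes of smallest q per further list. The members and lists were chosen with earlier results of these data known. Python 3.11.15, pandas 2.3.3 and scipy 1.17.1 were used.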

Additional observations from a re-analysis of the deposited data

How the results depend on the processing

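No paired analysis was possible because no column holds a sample, and for the same reason leaving out replicates, other size factors and the low-count filter were not run. Against 6 listed members, 3 were left at a fold of at least 5, 1 at a pileup of at least 20 and 2 with a peak within 1 kb of the gene start, a setting that evaluated only the 6 members in the promoter table. With Ccr7 and S1pr1, whose strands came from the peak list, 4 had such a peak (chosen after the data were seen). Follicle homing genes went from 2 to 0 at that pileup and to 1 near the gene start, with or without those strands. Egress and inflammatory homing genes went from 4 to 1 at that fold, at that pileup and near the start of promoter table genes, and to 3 with the added strands. The other settings kept each count within 1.5 times. The median fold of member peaks moved from 4.29 (list 4.74) to 5.06 with 1 value per gene (list 4.86) and to 4.97 at a q of 0.01 (list 5.04), so its side of the list median changed with the first. For peaks touching a member gene, also chosen after the data were seen, it was 5.06. The median pileup stayed between 8.77 and 11.02. Depth limits the sites at Ccr7 and Gpr183, with 19 fragments each and 0 at the control site.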
